A study of Rattus norvegicus with 23 samples.

Results

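The 3 arrays taken 8 h after a conditioning lesion were examined, of 23 arrays in the whole time course. They were chosen by their time label, and each compared RNA from lesioned dorsal root ganglia (DRG) with RNA from intact DRG. Of 5088 probes, 5005 were measured on at least 2 of the 3 arrays and were tested. The lesioned samples came from Long-Evans rats of postnatal day 20 to 24 whose sciatic nerve had been transected, and ganglia L4 and L5 were taken. Lesioned RNA carried the dye Cy5 and intact RNA the dye Cy3 on every array, so dye and lesion cannot be told apart in a single ratio. The 12 other first-day arrays (4, 12, 18 and 24 h, 3 at each time) and the 8 arrays from 48 h on (48, 148 and 296 h) were made the same way and served for comparison. Neither the source of the intact RNA nor whether replicates were different animals is given in the labels, so the p-values reflect no more than the spread between these arrays. They also call the material cultured DRG cells, while their treatment text describes ganglia removed after surgery.

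A DRG holds the cell bodies of sensory neurons, each wrapped by satellite glia, together with Schwann cells, vessels, fibroblasts and resident macrophages. Cutting the peripheral branch of these neurons changes their gene expression and raises the capacity of their axons to grow, which is the conditioning effect. The stress-induced transcription factor Atf3 and the chemokine Ccl2, which attracts monocytes, are among the best known early transcripts of injured DRG neurons. In whole ganglia, fewer cells of a type and less mRNA per cell cannot be told apart.

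The 8 h arrays were like the other first-day arrays in quality. The standard deviation (SD) of their log2 ratios was 0.533 to 0.693 and they lacked 99 to 110 probes, against 0.506 to 0.803 and 78 to 143 over all 15 first-day arrays. From 48 h on the SD reached 1.61 and up to 3025 probes were missing. Across probes, which are not independent replicates, the 8 h arrays had a Spearman correlation of 0.222 to 0.26 with each other. With the other first-day arrays it was 0.164 to 0.376, a range that holds those values. All values below are log2 ratios of lesioned over intact unless a fold is named.

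The first comparison asked which mRNAs differed between lesioned and intact ganglia at 8 h. Of the 5005 probes, 48 passed the threshold (limma, Benjamini-Hochberg adjusted p under 0.05), which is 0.959% of those tested. Ratios were higher for 17 probes (0.34%) and lower for 31 (0.619%), and 692 had an unadjusted p under 0.05. The higher group included both Ccl2 probes, Atf3, the C/EBP family gene Cebpg and the transcriptional repressor gene Bhlhe40. The lower group included cyclin D1 (Ccnd1), the complement gene C5, Vegfa and the AP-1 family gene Fosl2. The set shrank when an 8 h array was left out, which also leaves the test less able to detect a difference. When each 8 h array was left out in turn, 35 (without replicate 1), 21 (without replicate 2) and 11 (without replicate 3) probes passed. A call lost in this way need not mean that 1 array stood apart. Of the 48, 20 passed in none of these cases, Vegfd, Ttpa, Itgb4, Crtac1 and Ptprn2 among them, although Crtac1 had 0.98, 1.02 and 1.03. In all 3 cases 7 passed. Those 7 were Ccl2 probe 26C01, Rps6kb1, Ccnd1, C5, Vegfa, Fgfr1-ps1 and the unnamed probe 49A03. With all 23 arrays weighted equally 21 passed, and with the 3 arrays at 8 h alone 0 passed, although 588 had an unadjusted p under 0.05 in that 8 h lesion effect.

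**Figure D1:**
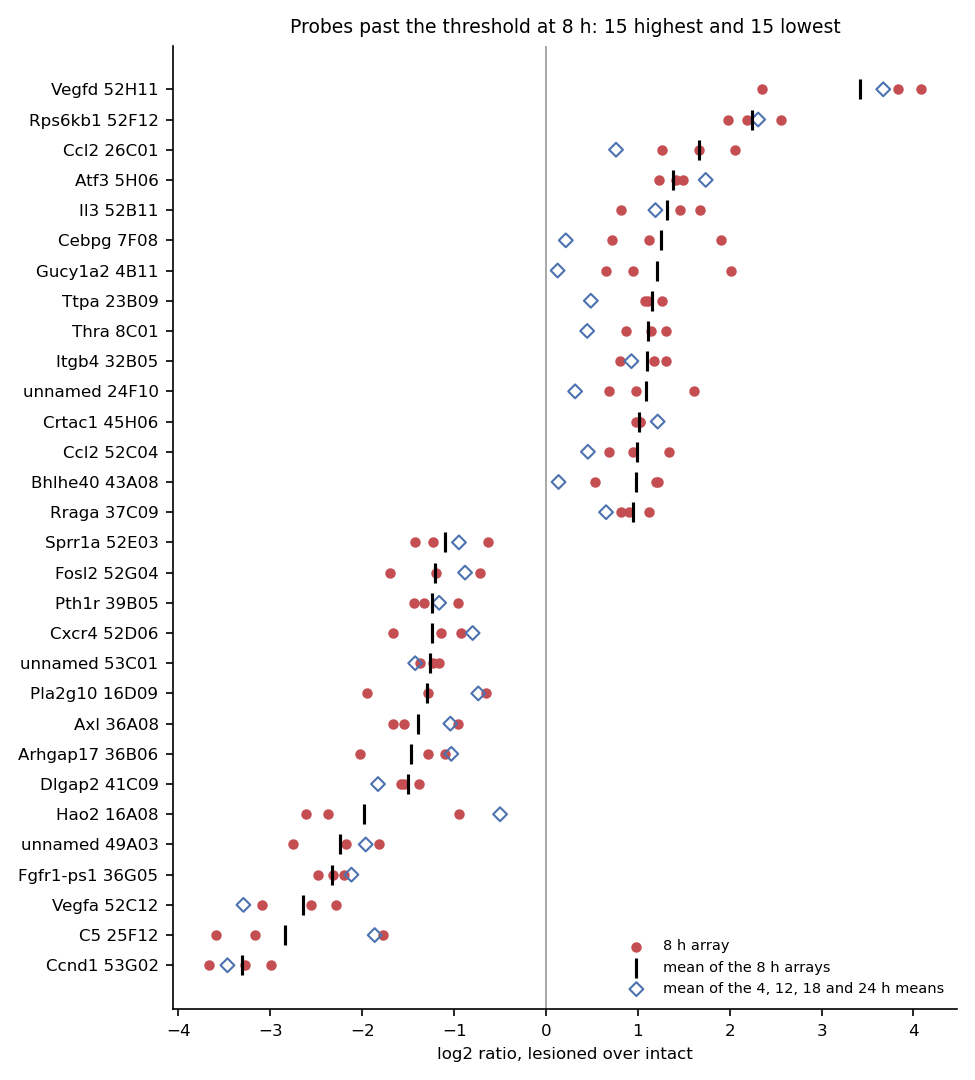
Among probes past the threshold at 8 h, the 15 with the highest and the 15 with the lowest ratios, with the log2 ratio on each of the 3 arrays at 8 h (points), their mean (bars) and the mean of the 4 other first-day times (open diamonds). Ccl2 probe 26C01, Cebpg, Gucy1a2 and Bhlhe40 lay to the right of their diamonds, while Vegfd, Rps6kb1 and Ccnd1 lay on or near theirs.

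Ccl2 was measured by a pair of probes and both passed. Probe 26C01 had 1.26, 1.67 and 2.06 on the 3 arrays, a mean of 1.66 ± 0.40 (SD, n = 3) or 3.17-fold (limma adjusted p = 0.000284). On the 12 other first-day arrays the same probe lay between 0.36 and 1.02, so that each 8 h array was above all of them. Its time means were 0.50 (4 h), 0.77 (12 h), 0.96 (18 h) and 0.82 (24 h). Its means at 48, 148 and 296 h were 1.25, 1.13 and 1.78, on 3, 2 and 2 arrays that ran from 0.73 to 2.83. Probe 52C04 had 0.68, 1.34 and 0.95, a mean of 0.99 ± 0.33 (SD, n = 3) or 1.99-fold (adjusted p = 0.021). This probe had 0.14 at 4 h and 0.97 at 12 h and then 0.51 and 0.21. At 48, 148 and 296 h it had 0.39, -0.16 and -0.03, unlike probe 26C01. The 8 h values of probe 52C04 overlapped the other first-day range of -0.23 to 1.09. Without replicate 2 or 3 at 8 h its adjusted p was 0.144 and 0.108, whereas that of 26C01 was at most 0.00485 with any 8 h array left out.

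Atf3 had 1.23, 1.41 and 1.50 at 8 h, close to one another, with a mean of 1.38 ± 0.13 (SD, n = 3) or 2.60-fold (limma adjusted p = 0.00844). Its means at the other times were 0.52 (4 h), 1.55 (12 h), 2.61 (18 h) and 2.28 (24 h), and the 8 h values overlapped those of 12 h. Atf3 had 3.70 on the 1 array that measured it at 48 h. Leaving out replicate 2 or 3 at 8 h gave an adjusted p of 0.0552 and 0.0916. Both markers given for the 8 h lesion were thus higher on every 8 h array.

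**Figure D2:**
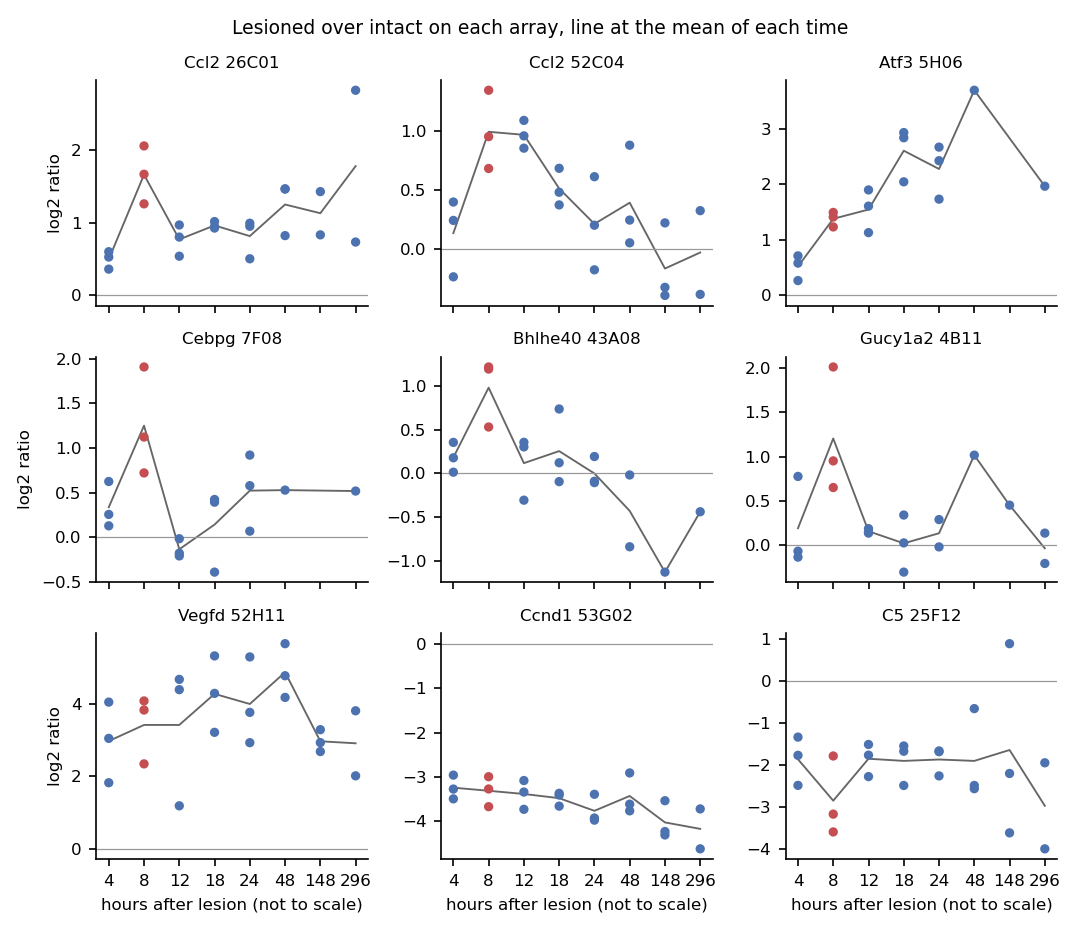
Log2 ratio of lesioned over intact on each array (points, 8 h in red) against the survival time in hours (spaced evenly, not to scale), with a line at the mean of each time, for 9 probes past the threshold at 8 h. Ccl2 probe 26C01, Cebpg, Bhlhe40 and Gucy1a2 had their highest first-day mean at 8 h, Atf3 had its highest at 18 h, and Vegfd, Ccnd1 and C5 kept their sign on all first-day arrays.

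Further genes were higher at 8 h and nearer to 0 at the neighbouring times. Cebpg, a leucine zipper transcription factor that pairs with other C/EBP and ATF proteins, had 1.12, 0.72 and 1.91, a mean of 1.25 (2.38-fold, limma adjusted p = 0.0231). Its means were 0.34 at 4 h, -0.13 at 12 h, 0.14 at 18 h and 0.52 at 24 h. Gucy1a2, a subunit of the soluble guanylate cyclase that senses nitric oxide, had 0.65, 0.95 and 2.01, a mean of 1.21 (2.31-fold, adjusted p = 0.0417), and 0.02 to 0.19 at the other first-day times. For both genes replicate 3 was the highest. The lowest 8 h array of each overlapped other first-day arrays, which reached 0.92 for Cebpg and 0.78 for Gucy1a2. Bhlhe40, which binds E-box sequences and takes part in the circadian clock and hypoxia responses, had 0.53, 1.19 and 1.22, a mean of 0.98 (1.97-fold, adjusted p = 0.0308). Its means at 4, 12 and 18 h were 0.18, 0.12 and 0.25, and replicate 1 at 8 h overlapped the other times. Each of these 3 genes lost its call without replicate 3 at 8 h, with adjusted p of 0.16 for Cebpg, 0.206 for Gucy1a2 and 0.171 for Bhlhe40. Cebpg also lost it without replicate 1 (0.0725), and Gucy1a2 and Bhlhe40 without replicate 2 (0.117 and 0.164).

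In these 3 genes the 8 h mean was above those of 4 and 12 h, though neither difference passed adjustment. The same held for Thra and Kcnf1 (described below), whose windows held none of the motifs searched for and are not shown. For the 3 genes, promoter sequences are shown, as the 250 bases before the start of the gene on the gene's strand (RefSeq, build GRCr8). Of the 15 named genes that were higher, 10 had an entry, and Ccl2, Atf3, Ttpa, Itgb4 and Rraga had none. Windows were searched on both strands for a cAMP response element (TGACGTCA), an AP-1 site (TGACTCA), a C/EBP-ATF composite site (TGATGCAA) and an E-box (CACGTG). Over all 33469 windows of this length 1.59%, 4.05%, 0.693% and 5.59% held them. Among the 10 higher genes, 2 held an E-box and 0 held any of the others. Capitals mark a match, which lay at bases -117 to -112 in Gucy1a2 (chr8:8784962-8785211, plus strand) and at -220 to -215 in Bhlhe40 (chr4:143174200-143174449, plus strand). The window of Cebpg (chr1:96829737-96829986, minus strand) held none of the 4.
Gucy1a2: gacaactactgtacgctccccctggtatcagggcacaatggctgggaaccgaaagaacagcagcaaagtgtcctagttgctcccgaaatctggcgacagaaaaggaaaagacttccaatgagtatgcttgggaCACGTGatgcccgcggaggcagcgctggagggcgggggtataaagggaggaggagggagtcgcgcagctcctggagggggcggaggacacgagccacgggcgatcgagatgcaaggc
Bhlhe40: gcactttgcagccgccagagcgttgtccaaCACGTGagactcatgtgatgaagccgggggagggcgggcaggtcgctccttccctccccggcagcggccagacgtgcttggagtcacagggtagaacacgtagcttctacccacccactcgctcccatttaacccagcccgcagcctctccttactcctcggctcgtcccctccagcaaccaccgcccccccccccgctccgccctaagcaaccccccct
Cebpg: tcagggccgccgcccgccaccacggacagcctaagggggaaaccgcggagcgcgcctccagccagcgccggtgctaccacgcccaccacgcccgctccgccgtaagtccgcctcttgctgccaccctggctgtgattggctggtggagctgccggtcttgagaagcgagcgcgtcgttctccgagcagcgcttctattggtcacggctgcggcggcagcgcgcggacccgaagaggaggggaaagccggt

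Metabolic, nuclear receptor and channel genes were also among the higher probes. Ttpa, the vitamin E transfer protein gene, had 1.11, 1.26 and 1.08 (mean 1.15, limma adjusted p = 0.021), above all other first-day arrays, which ran from -0.21 to 0.98. Thra, the thyroid hormone receptor alpha gene, had 1.30, 0.87 and 1.15 on probe 8C01 (mean 1.11, adjusted p = 0.00902), and its means at 4, 12, 18 and 24 h were 0.80, 0.20, 0.18 and 0.61. Kcnf1, a modulatory potassium channel subunit gene, had 0.52, 1.03 and 1.20 (mean 0.92, adjusted p = 0.0233) against 0.19 to 0.41 at the other first-day times. At 48 h Kcnf1 had -0.16, 1.23 and 2.97, a higher mean of 1.34. The values of Thra and Kcnf1 overlapped those of other first-day arrays. The unnamed probe 24F10 had 0.69, 1.61 and 0.98, with a mean of 0.32 over the 4 other first-day times. On the 1 array that measured it at 148 h this probe had 1.42. Without replicate 3 at 8 h the adjusted p was 0.108 for Ttpa, 0.0916 for Thra and 0.16 for Kcnf1. Ttpa also did not pass without replicate 1 or 2 (0.0754 and 0.119), Thra without replicate 1 (0.0665) or Kcnf1 without replicate 2 (0.144). Kcnf1 lies outside the naming rule and was added after its values were seen.

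The largest higher ratios, those of Vegfd and Rps6kb1, were about as large at the other first-day times. Some smaller ones also kept their sign in the mean of those times. Vegfd, a growth factor gene for lymphatic and blood vessels, had 4.09, 3.84 and 2.35 on probe 52H11, a mean of 3.42 (10.7-fold, limma adjusted p = 0.0295), and 2.98 at 4 h. Rps6kb1, the gene of the p70 S6 kinase that promotes protein synthesis, had 2.19, 2.56 and 1.98 on probe 52F12 (mean 2.25, adjusted p = 0.000484) and 1.94 to 2.73 at the other first-day times. The interleukin gene Il3 had 0.81, 1.67 and 1.46 on probe 52B11, with 1.34 at 4 h. The integrin gene Itgb4 had a mean of 1.10, the matrix protein gene Crtac1 1.01, Rraga, a GTPase gene of the mTORC1 pathway, 0.94, and Ptprn2, a gene of a dense-core vesicle protein, 0.65. Means of these over the 4 other first-day times were 0.93, 1.22, 0.65 and 0.50. All 12 other first-day arrays were above 0 for Vegfd, Rps6kb1, Il3, Itgb4, Crtac1 and Rraga. Rraga was at 0.85 or below on them and had 0.90, 0.81 and 1.12 at 8 h.

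Most of the lowest probes were low at every first-day time. Ccnd1, which drives entry into the cell cycle, had -3.27, -2.99 and -3.67 on probe 53G02, a mean of -3.31 ± 0.34 (SD, n = 3) or 9.93-fold lower (limma adjusted p = 4.42e-07), with -3.24 at 4 h. Vegfa, the main growth factor gene of blood vessels, had -3.10, -2.29 and -2.55 on probe 52C12 (mean -2.65, adjusted p = 0.0039) and -2.29 at 4 h. The pseudogene Fgfr1-ps1 had a mean of -2.33 at 8 h and -2.34 at 4 h. The postsynaptic scaffold gene Dlgap2 had -1.50 and -1.87, and the unnamed probe 49A03 had -2.25 and -2.77. Axl, a receptor kinase gene of the clearance of dead cells, had -0.95, -1.66 and -1.55, and Arhgap17 had -1.10, -1.29 and -2.02. Their means over the 4 other first-day times were -1.04 and -1.03. Pth1r, the parathyroid hormone receptor gene, had a mean of -1.24 at 8 h, and the unnamed probe 53C01 had -1.26. Pla2g10, a secreted phospholipase gene, had -0.65, -1.28 and -1.95, with replicate 3 the lowest. It was nearer to 0 at 12 h (-0.25) and 18 h (-0.38) than at 4 h (-1.16) and 24 h (-1.16).

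For several lower probes, Axl, Arhgap17, Pla2g10 and Cxcr4 among them, the first-day mean furthest from 0 was that of 8 h. Further cases follow. C5, the complement component that yields the attractant C5a, had -1.78, -3.16 and -3.59, a mean of -2.84 (7.17-fold lower, limma adjusted p = 0.00069). Its other first-day means lay between -1.90 and -1.84, and replicate 1 at 8 h overlapped them. Hao2, a peroxisomal oxidase gene, had -2.61, -0.95 and -2.37 (mean -1.98, adjusted p = 0.0295) and went from -1.54 at 18 h to 0.93 at 24 h. The morphogen genes Wnt4 and Bmp4 had means of -0.88 and -0.72, against -0.24 and -0.34 over the 4 other first-day times. Wnt4 had -1.07, -0.85 and -0.71 on the 3 arrays, and Bmp4 had -0.57, -0.73 and -0.84. These small ratios overlapped those of other first-day arrays. Beyond the first day, means as far from 0 or farther were seen for C5 (-2.96 at 296 h), Wnt4 (-1.40 at 148 h) and Bmp4 (-0.83 at 296 h). Such means were also seen for Arhgap17 and Pla2g10 at 48 and 148 h and for Cxcr4 at 48 and 296 h.

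Besides Wnt4 and Bmp4, the 31 lower probes included those of the BMP antagonist gene Grem1 (-0.94), the Notch target and repressor gene Hes1 (-0.94), the axon guidance gene Slit2 (-1.01), the growth factor gene Tgfb3 (-0.93) and the homeobox gene Vax1 (-0.78). Cxcr4, the receptor of the chemokine Cxcl12, had -0.92, -1.14 and -1.67 on probe 52D06 (limma adjusted p = 0.0105). F2rl3, a thrombin receptor gene, had -0.87, Hivep2, a zinc finger gene, -0.95, the deubiquitinase gene Usp15 -1.02, Spag4 -1.06 and the muscle gene Klhl41 -0.82. Apart from Cxcr4 and Tgfb3, the genes of this paragraph fall outside the naming rule and were named after their values were seen. Without replicate 3 at 8 h, none of the genes of this paragraph passed, nor did Axl, Arhgap17, Dlgap2, Pth1r, Pla2g10 or Hao2 (adjusted p from 0.0564 for Arhgap17 to 0.22 for Pla2g10).

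Fosl2 and Sprr1a were lower at 8 h. Fosl2, a Fos family member of the AP-1 factor, had -1.70, -0.72 and -1.20 on probe 52G04, a mean of -1.21 (2.31-fold lower, limma adjusted p = 0.0444). It was lower still at 4 h (-2.01) and nearer to 0 at 12 h (-0.60), 18 h (-0.51) and 24 h (-0.40). Sprr1a, known as a transcript induced in injured sensory neurons, had -0.64, -1.43 and -1.23, a mean of -1.10 (2.14-fold lower, adjusted p = 0.00476). Its first-day means ran from -1.19 at 4 h to -0.76 at 18 h, and all 12 other first-day arrays were below 0. Sprr1a lost its call without replicate 2 or 3 at 8 h (adjusted p = 0.0541 and 0.0731). Fosl2 lost its call without replicate 1, 2 or 3 (adjusted p = 0.171, 0.0643 and 0.163). Of the 26 named lower genes 22 had a promoter entry, while Slit2, Dlgap2, Fgfr1-ps1 and Ccnd1 had none. Sprr1a was the 1 of the 22 with an AP-1 site, which 4.05% of all windows held. It had a pair of them, at bases -147 to -141 and -117 to -111 (chr2:180752626-180752875, minus strand, RefSeq GRCr8). An E-box was found in 2 of the 22, Bmp4 and Spag4 (5.59% of all windows held one), and the other motifs in 0. The Sprr1a window is shown with both AP-1 sites in capitals.
Sprr1a: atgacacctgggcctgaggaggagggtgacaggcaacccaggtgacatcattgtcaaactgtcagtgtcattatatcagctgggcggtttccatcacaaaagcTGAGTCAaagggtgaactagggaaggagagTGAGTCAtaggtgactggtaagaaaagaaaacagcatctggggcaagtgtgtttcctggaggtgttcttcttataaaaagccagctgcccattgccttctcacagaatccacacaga

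Different probes of 1 gene gave different answers. For 9 of the genes past the threshold another probe was tested, and for 1 of them, Ccl2, both passed. The other Vegfd probe (29H11) had 0.10, -0.53 and -0.20, against 3.42 on probe 52H11. The other Ccnd1 probe (30F03) had -0.44, 0.98 and -0.89, against -3.31. For Rps6kb1 the other probe had 0.01, for Vegfa -0.37, for Il3 -0.52, for Cxcr4 0.22, for Hspa1a 0.22 and for Thra 0.21. None of these 8 other probes passed, and 4 of them, those of Vegfd, Il3, Cxcr4 and Hspa1a, had the opposite sign. The direction of those genes therefore rests on 1 probe of 2.

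The calls were uneven over the leading number of the probe IDs, read here as the printing plate. Plates 36, 43, 52 and 53 held 24 of the 48 called probes among 344 tested (6.98%), while the other 49 plates held 24 among 4661 (0.515%). This grouping was made after the calls were seen. Plate 52 alone held 11 of 95 (11.6%), among them the called probes of Vegfd, Rps6kb1, Vegfa, Il3, Cxcr4, Sprr1a, Fosl2, Tgfb3 and Hspa1a and Ccl2 probe 52C04. Ccl2 probe 26C01, Atf3, Cebpg, Gucy1a2, Ttpa, Thra and C5 lay on other plates, and Bhlhe40 lay on plate 43. Of the 24 called probes on these 4 plates, 21 had the same sign on all first-day arrays, against 13 of the 24 on other plates. Of the genes above whose other probe did not pass, all but Thra had the called probe on plate 52 or 53. Sprr1a, Fosl2 and Tgfb3, called on plate 52, had no other tested probe. The part of the plate in these ratios was not tested.

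The ratios at 8 h were next set beside those at the other times. All 48 probes had 1 sign on the 3 arrays at 8 h, as did 38.8% of all tested probes, and all 48 had the same sign in the mean of the 4 other first-day times, against 71.0% of all tested probes. For 34 of the 48 every other first-day array had that sign, against 5.77% of all tested probes. A test added after the data were seen used the mean of 4, 12, 18 and 24 h. It rests on 12 arrays against 3 at 8 h, so its share of calls cannot be set against that of 8 h. That mean differed from 0 for 920 of 4955 probes (18.6% of those tested, 8.13% higher and 10.4% lower). It did so for 42 of the 48, with the sign of 8 h in every case. The 6 others were Cebpg, Gucy1a2, Bhlhe40, Wnt4, Hao2 and probe 24F10. The mean of the other times was at least 0.5 of the 8 h value for 36 of the 48 and smaller for 12. Those 12 were both Ccl2 probes, Cebpg, Gucy1a2, Ttpa, Thra, Bhlhe40, Kcnf1 and probe 24F10 among the higher ones and Bmp4, Wnt4 and Hao2 among the lower ones.

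**Figure D3:**
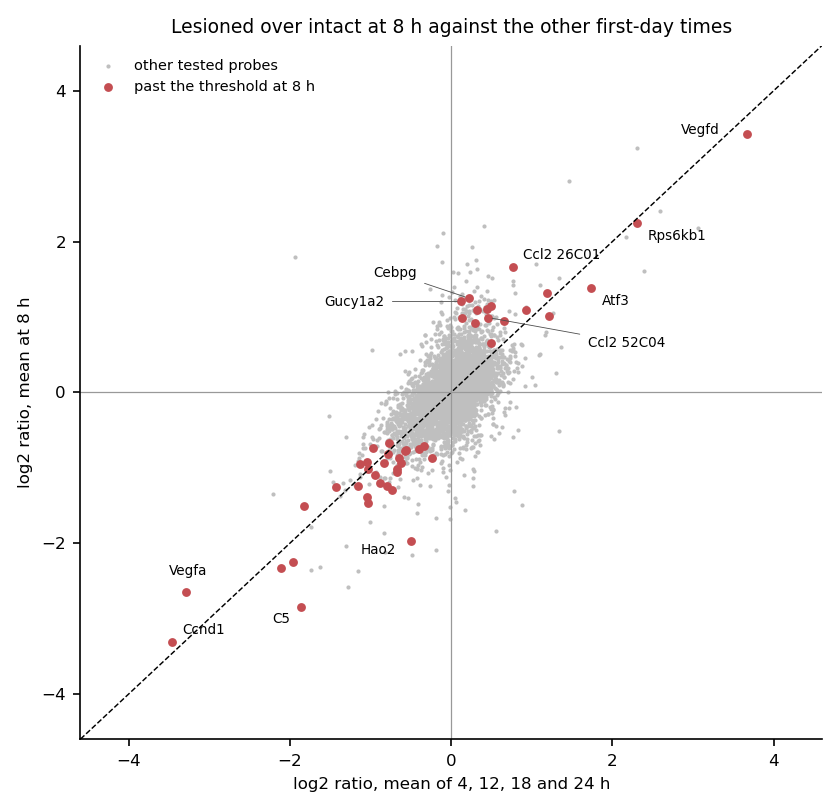
Mean log2 ratio at 8 h (vertical) against the mean of 4, 12, 18 and 24 h (horizontal) for every tested probe, with probes past the threshold at 8 h in red and a dashed line of equality. Vegfd, Rps6kb1, Ccnd1 and Vegfa lay near the line, while Ccl2 probe 26C01, Cebpg and Gucy1a2 lay above it and C5 and Hao2 below it.

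The difference itself was then tested, 8 h minus the mean of 4, 12, 18 and 24 h. By limma 0 of 4946 probes passed the threshold (percent called 0), 269 had an unadjusted p under 0.05, and the smallest adjusted p was 0.768. The smallest unadjusted p of all, 0.000236, belonged to Ccl2 probe 26C01, which was 0.90 higher at 8 h (95% confidence interval 0.51 to 1.29). Cebpg was 1.03 higher (0.48 to 1.59), Gucy1a2 1.08 (0.47 to 1.69) and Bhlhe40 0.84 (0.37 to 1.31), with unadjusted p of 0.00143, 0.00215 and 0.00185. Ccl2 probe 52C04 was 0.54 higher (0.10 to 0.97), Ttpa 0.66 (0.16 to 1.16) and Thra 0.66 (0.23 to 1.08). C5 differed by -0.98 (-1.74 to -0.22), Hao2 by -1.48 (-2.40 to -0.55) and Wnt4 by -0.64 (-1.08 to -0.21). The intervals of these probes reached past 1 in size, except that of Ccl2 probe 52C04. In all, 13 of the 48 had an unadjusted p under 0.05 here, 9 of them higher and 4 lower. None passed after adjustment, so no probe was shown to respond at 8 h in particular. Atf3 differed by -0.36 (-0.88 to 0.16).

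Some probes differed from the other times without passing at 8 h. Gadd45a, a stress-response gene, had 0.17, 0.56 and 0.03 at 8 h, a mean of 0.26, and 1.17 at 12 h, with a difference of -1.05 (unadjusted p = 0.00213). Socs2, a suppressor of cytokine signalling, had -0.18, -0.32 and -1.70 at 8 h and was above 0 at the other first-day times. Its difference of -0.997 came mainly from replicate 3. Serpinb2, a protease inhibitor gene of inflamed tissue, had 0.08, 0.67 and 0.62 and lay between -0.64 and 0.03 at the other first-day times. Ptgs1, the gene of cyclooxygenase 1, had 0.44, 0.22 and 0.71, against -0.42 to -0.02. None of these differences passed adjustment.

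Neighbouring times were compared directly. For 8 h minus 4 h, limma passed 0 of 4977 probes (302 at an unadjusted p under 0.05), with a smallest adjusted p of 0.193 that several probes shared, Serpinb2 and Ccl2 probe 26C01 among them. Serpinb2 was 1.10 ± 0.21 (SE) higher at 8 h than at 4 h and Ccl2 probe 26C01 1.17 ± 0.23 higher. Ccl2 probe 52C04 was 0.86 ± 0.25 higher and Atf3 0.86 ± 0.30 higher, both with an adjusted p of 0.765. For 12 h minus 8 h, 0 of 4977 passed (239 unadjusted), with a smallest adjusted p of 0.607. Cebpg differed by -1.38 ± 0.33 (SE), Ccl2 probe 26C01 by -0.89 ± 0.23 and Ccl2 probe 52C04 by -0.03 ± 0.25. The difference between the probes of Ccl2 was not tested. Atf3 differed by 0.17 ± 0.30.

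Over the whole course, 8 h was set against the mean of the 7 other times with all 23 arrays and array weights. Of 2327 probes measured on at least 2 arrays at every time, 12 passed (0.516%), 2 higher at 8 h (0.0859%) and 10 lower (0.43%). Of the 48 probes past the threshold at 8 h, 35 were tested here and none was among them. Atf3, Cebpg, Gucy1a2, Bhlhe40, Thra, Kcnf1 and probe 24F10 were not tested, as too few later arrays measured them. The 12 were near 0 at 8 h, with means of -0.28 to 0.51, and further from 0 at some other time. Npy, the neuropeptide Y gene that injured sensory neurons switch on, had -0.33, 0.15 and 0.26 at 8 h and 2.81, 5.70 and 4.66 at 48, 148 and 296 h (difference -1.84 ± 0.22, SE, adjusted p = 0.000441). Stmn4, a microtubule regulator gene of the stathmin family, had -0.04, 0.05 and -0.08 at 8 h and 0.88 at 18 h. Hspb1, a small heat shock protein gene, had -0.19, -0.20 and -0.28 on probe 9H02 and 0.59 at 18 h. The growth cone gene Gap43 had -0.08, 0.21 and 0.09, the metalloproteinase inhibitor gene Timp1 -0.12, -0.40 and -0.05 and the calcium-binding protein gene Ocm 0.01, 0.13 and 0.08. The peptide precursor gene Vgf had 0.27, 0.69 and 0.57 on probe 1D09, all above 0 as at every other time. The set was unstable, with 1 probe past the threshold under equal weights and 1 or 2 without any one of the 8 h arrays.

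**Figure D4:**
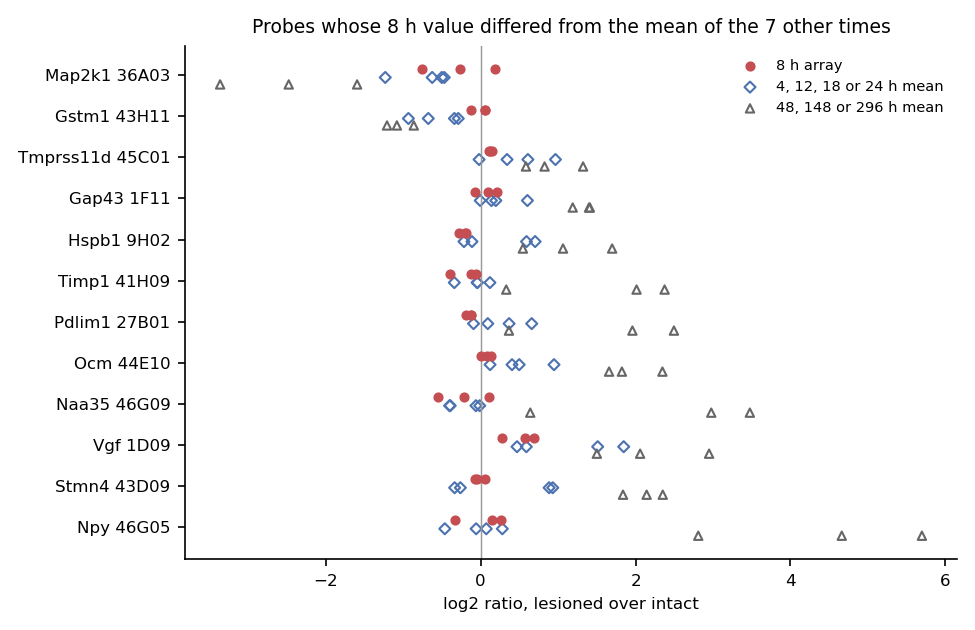
The 12 probes whose 8 h value differed from the mean of the 7 other times, with the log2 ratio on each 8 h array (points), the means of 4, 12, 18 and 24 h (diamonds) and the means of 48, 148 and 296 h (triangles). For Npy, Stmn4 and Ocm the 8 h arrays sat near 0 while the later means reached 5.70, 2.35 and 2.35.

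Of 9 measured genes that the study discusses, Atf3 was higher, Sprr1a was lower and 7 did not pass at 8 h. With 1 probe a gene, 5 of the 9 had an unadjusted p under 0.05, against 568 of 4138 genes in all. The study took up some of these genes with the arrays in view and others from earlier work, so their count is not independent evidence. Il6, the cytokine gene followed up by the study, had -0.23, -0.21 and -1.18 (mean -0.54, limma adjusted p = 0.234), with replicate 3 apart from the others. Slpi, a protease inhibitor gene, had -0.26, -0.02 and 2.11, so its mean of 0.61 came from replicate 3. The metallothionein gene Mt1 had means of 0.63, 0.33 and -0.16 on its 3 probes. The highest of them, probe 22G06, had 0.26, 0.15 and 1.49, and its mean was 0.20 without replicate 3. Vgf had 0.51 on probe 1D09 and 0.11 on probe 52D09, Gap43 had 0.07, the growth cone gene Basp1 -0.17 on probe 28A06 and -0.34 on probe 52H06, and the arginase gene Arg1 -0.37.

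Gene lists were described with 1 probe a gene, over which 14 of 4138 genes were higher and 23 lower, with a median of 0.02, and 568 had an unadjusted p under 0.05. Of 33 immediate-early and stress transcription factors, Atf3 was higher and Fosl2 lower, and the median was -0.03. The stress gene Gadd45g had 0.45, 0.83 and 1.74 and the immediate-early gene Egr1 had a mean of 0.27, neither past the threshold. Of 33 chemokines and cytokines, Il3 and Ccl2 were higher and Tgfb3 lower (median 0.13). Il1a had 0.60, 0.89 and 1.13, Cx3cl1 a mean of 0.83, Tnf 0.40 and Il1b -0.24, none of them past the threshold. Of 20 chemokine and cytokine receptors 0 passed (median 0.04), the called Cxcr4 probe not being the one counted, and 3 had an unadjusted p under 0.05. Of 17 genes of the gp130 cytokine family 0 passed (median -0.11, 4 at an unadjusted p under 0.05), with Socs3, a feedback inhibitor of this pathway, at 0.61, 1.11 and 0.71.

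The medians of the neuronal lists lay between -0.06 and 0.15. Of 36 regeneration-associated genes, Atf3 was higher and Sprr1a lower, with 14 above 0, 22 below 0 and a median of -0.06. Of 10 injury neuropeptides 0 passed (median 0.01, 2 at an unadjusted p under 0.05). Vip had 0.56, 3.06 and -0.04, a wide spread, and galanin (Gal) a mean of 0.24. Of 20 sensory neuron and 20 nociceptor genes 0 passed (medians 0.02 and -0.01, 1 and 2 unadjusted), with Nefh at 0.42, Ret at -0.49, Scn11a at 0.50 and Tac1 at -0.06. Of 54 ion channel genes 0 passed, with a median of 0.15, 36 above 0 and 9 at an unadjusted p under 0.05. Of 15 neurotrophin and GDNF family genes 0 passed (median 0.10, 6 unadjusted), the highest being Nrtn with 0.28, 2.07 and 1.48.

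Among the lists of markers of other cells, with 1 probe a gene, 1 vessel-related gene passed. Of 22 endothelial genes, Vegfd was higher on the probe described above (median 0.07, 5 at an unadjusted p under 0.05), and the called lower Vegfa probe 52C12 was not the one counted, while Nos3, the endothelial nitric oxide synthase gene, had -0.89, -1.54 and -0.97 without passing. No gene passed among 15 Schwann cell and myelin genes (median 0.14, Sox10 at 0.61), 14 satellite glia genes (median 0.18), 12 macrophage and microglia genes (median 0.04), 13 lymphocyte and neutrophil genes (median -0.04) or 26 fibroblast and matrix genes (median -0.12). Unadjusted p values under 0.05 numbered 3, 0, 2, 0 and 4 in these lists. The macrophage genes Ptprc, Itgam and Cd14 had means of 0.38, 0.37 and 0.27, and Lyz2 and Ctss had -0.72 and -0.79. No gene passed among 12 skeletal muscle genes (median 0.13, 2 unadjusted) or 4 erythrocyte genes (median -0.04, 0 unadjusted). The muscle gene Tnnc2 had -0.24, 2.48 and 3.55, the widest of these, and the haemoglobin gene Hbb a mean of -0.08.

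Stress and metabolic lists held 1 called gene. Of 22 heat shock genes Hspa1a was lower, with -0.75, -0.80 and -0.74 on probe 52E12, and the median was -0.05. No gene passed among 29 metallothionein and antioxidant genes (median -0.01), 12 cholesterol synthesis genes (median 0.18), 39 genes of cAMP signalling (median -0.10, 27 below 0), 22 cell cycle genes (median -0.13, the called lower Ccnd1 probe 53G02 not being the one counted), 26 apoptosis genes (median -0.10) or 24 oxidative phosphorylation genes (median 0.05). Insig1, a brake on cholesterol synthesis, had -2.22, -0.89 and -0.79, Pde2a, which breaks down cyclic nucleotides, -1.37, -0.25 and -0.88, and the ATP synthase gene Atp5me 0.39, 0.56 and 0.68. These 3 came near the threshold without passing (adjusted p = 0.0742, 0.0742 and 0.0735). In these 6 lists, in the order given, 4, 1, 5, 5, 3 and 2 genes had an unadjusted p under 0.05.

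**Figure D5:**
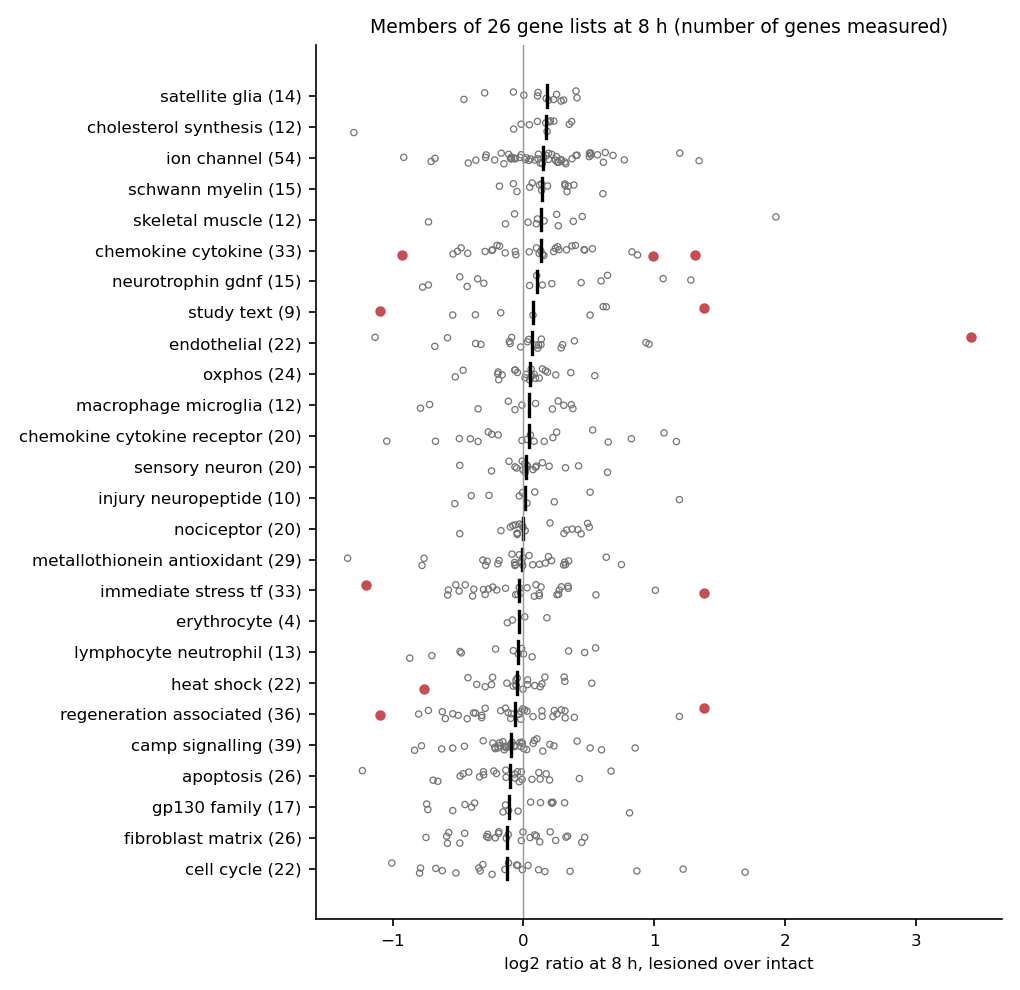
Log2 ratio of lesioned over intact at 8 h for each measured gene of 26 lists (points, 1 probe a gene), with the list median as a bar and genes past the threshold filled in red. Medians lay between -0.13 and 0.18, and Vegfd at 3.42 was the farthest point.

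Around the threshold, the last probes inside were Ptprn2 (0.71, 0.68 and 0.56, limma adjusted p = 0.0452) and the unnamed probe 43F05 (-0.78, -0.54 and -0.68, adjusted p = 0.0492). The first outside were Kidins220, a scaffold gene of neurotrophin receptors, with 0.30, 0.94 and 1.04 (adjusted p = 0.0618) and Sert1 with -0.80, -0.74 and -0.79 (adjusted p = 0.0619). Kidins220 and Sert1 thus differed little from the probes that passed.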

How the data were processed

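The deposited values were linear ratios, 1 per probe and array, with array medians near 1. They were taken as Cy5 over Cy3, that is lesioned over intact, which is likely from the dyes in the labels but not stated. Scanner, background correction and within-array normalisation are not given in the sources used here. Intensities were not used, which leaves signal over background unknown, and precision is limited by the number of arrays. Per the labels, RNA was labelled with a dendrimer system, and the labelling text speaks of cAMP-treated cultures. The second array at 296 h has 294 h in its time label.

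The ratios were converted to log2 without an offset. A mean per time was fitted with limma 3.58.1 (R 4.3.3) to the 15 first-day arrays, because arrays from 48 h on had a wider spread. Such arrays entered 8 h minus the 7 other times, with array weights. Tests were two-sided and adjusted over all probes with at least 2 arrays at each time compared. Standard errors (SE) and intervals use the moderated variance. The fit was tested on simulated data.

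Of the 5088 probes, 4423 had 1 gene symbol, 2 several and 663 none. Entrez identifiers of 4375 matched the reference, and 0 symbols changed. Lists used the probe of a gene measured on most arrays. Named were, of the probes past the threshold at 8 h, the 15 with the highest and 15 with the lowest ratios, those past it in a difference between times, genes of the study's text, up to 4 called (otherwise up to 2) members per list, and 2 probes on each side of the threshold. Differences from the other first-day times were also named from the smallest unadjusted p. Members, lists and this rule were chosen with earlier results of these data known. Alternatives covered arrays, weights, centring, scaling, missing values, variance, a replicate block, probes per gene, plates, left-out replicates and the methods' t-test.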

Additional observations from a re-analysis of the deposited data

Results flagged for a closer look

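For 12 probes the 8 h ratio differed from the mean of the 7 other times (limma with array weights, adjusted p under 0.05), and 10 of them were lower at 8 h. The difference was -1.84 for Npy, -1.09 for Stmn4, -1.06 for Vgf (probe 1D09), -1.06 for Naa35, an N-acetyltransferase subunit gene, and -1.04 for Ocm. It was -0.94 for Pdlim1, a cytoskeletal adaptor gene, -0.84 for Timp1, -0.82 for Hspb1 (probe 9H02), -0.68 for Gap43 and -0.56 for the serine protease gene Tmprss11d. It was 1.09 for the MAP kinase kinase gene Map2k1 and 0.79 for the glutathione transferase gene Gstm1. Map2k1 had -0.76, -0.27 and 0.19 at 8 h, and -3.36, -2.48 and -1.60 at 48, 148 and 296 h. Gstm1 had 0.06, 0.05 and -0.12 at 8 h and was below 0 at all 7 other times. Tmprss11d had 0.15, 0.10 and 0.13 and reached 1.32 at 48 h. Against the 4 other first-day times alone, differences were -0.59 for Vgf, -0.46 for Hspb1, -0.42 for Ocm, 0.07 for Npy and 0.00 for Naa35. The arrays from 48 h on had the wider spread and more missing probes given in the report, and their part in these differences was not tested. With arrays scaled to an equal spread 1 probe passed, and 0 of the 12 did.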

How the results depend on the processing

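In the 8 h lesion effect 48 probes passed as reported, 21 with all 23 arrays weighted equally, 14 without plates 36, 52 and 53, and 2 to 35 with a replicate left out. The 3 arrays at 8 h alone gave 0, and the methods' t-test gave 441 unadjusted and 0 after Benjamini-Hochberg adjustment. The other settings gave 36 to 64, with 64 under array weights over all 23 arrays (40 of the 48 among them). For 8 h minus the 4 other first-day times, leaving out replicates gave 0 to 3, for 8 h minus 4 h 0 to 1, for 12 h minus 8 h 0 to 2, and every other setting run gave 0. For 8 h minus the 7 other times, 12 became 1 with equal weights, 1 after scaling, 4 when the probes of each gene were averaged and 1 to 3 with a replicate left out. Array weights taken from the probes measured on all 23 arrays, added after seeing the data, gave 21. Among probes named, Mt1 probe 52G03 turned to 0.27 with the mean of the probes, Vgf probe 52D09 ran from -0.015 to 0.23 and Slpi from -0.14 to 1.05 when a replicate was left out (reported values 0.11 and 0.61). Where a named probe was recomputed at 8 h, 1367 values kept their call, 410 lost it, 16 gained one and 5 turned. The cause was not tested.

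Replicate numbers did not pair the arrays. Over 30 pairs of first-day arrays with the same number, correlations of deviations from the time means were -0.128 to 0.0964, and 3 of 15 arrays correlated best with their own number. With the number as a replicate block, 36 probes passed at 8 h (32 of the 48 among them), 4 against the 7 other times and 0 in the other comparisons. Precision is limited by 3 arrays per time, and ratios without intensities do not show which probes were near background.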
